A study of Saccharomyces cerevisiae with 12 samples.

Results

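The genes described here are the 10 core genes of trehalose and glycogen metabolism in budding yeast, Saccharomyces cerevisiae: TPS1, TPS2, TPS3, TSL1 and NTH1 for trehalose, and GSY1, GSY2, GLC3, GPH1 and GDB1 for glycogen. They were chosen by name for their roles, with no value in the rule though with earlier results of these data known, and make up 10 of the 6825 identifiers in the table, each measured in all 12 samples. The study sequenced polyA RNA of 4 strains, each in 3 biological replicates, to ask how the transcriptome responds to loss or excess of Euc1 (Ymr111c), a transcription factor-like protein that binds chromatin at sites where ubiquitin accumulates. The pGAL-EUC1 strain carries EUC1 under a galactose-inducible promoter, and the control strain carries EUC1 under its own promoter (pEUC1-EUC1). In both, the construct is a YIplac211 plasmid with URA3 in W303a RAD5, and the native copy is deleted (ymr111c::natNT2). Both grew in YP with raffinose to an OD of 0.5 and then received 2% galactose for 3 h. The euc1∆ strain (ymr111c::natNT2) and the WT strain are DF5a, grew in YP with glucose to mid-log phase, and share an extra MED11 copy (YIplac211-MED11::URA3), so neither is an unmodified parent. Each group is a single strain, so the replicate error covers cultures of that strain only.

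Trehalose is a disaccharide of glucose that protects proteins and membranes during heat and drying, and glycogen is a branched glucose polymer that stores carbon. Both are made from UDP-glucose, accumulate when growth slows, and are broken down when growth resumes. In glucose-grown cells, protein kinase A keeps the transcription factors Msn2 and Msn4 inactive; when its activity drops they bind the stress response element (STRE), whose core letters are AGGGG, upstream of many storage carbohydrate and stress genes.

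The STRE letters were searched on both strands of the 500 bases before each start codon, because this is the best known element of storage carbohydrate genes. All 10 genes held at least 1 match, against 34.1% of 6000 nuclear protein-coding genes, and 9 of 10 held at least 2, against 8.13%. Of 21 other genes of the pathway, listed below, 61.9% held at least 1 and 38.1% at least 2. Of 8 general stress genes, 100% and 87.5% did. TPS1 had 6 matches, TSL1 had 5, TPS2 had 4, NTH1 and GLC3 had 3, TPS3, GSY1, GSY2 and GPH1 had 2, and GDB1 had 1. Upstream regions of 5 genes are shown: TPS1 and TSL1, which were higher in pGAL-EUC1 than in the control, GPH1 and GLC3, which differed most between media, and TPS3, which differed least. Each run covers the bases from 400 to 151 before the start codon in R64, or from 400 to 251 for GPH1, written 5′ to 3′ on the coding strand, with AGGGG or its reverse complement CCCCT in capitals. The windows are chrII:490543-490792 on the minus strand for TPS1, chrXIII:70224-70473 on the plus strand for TSL1, chrXIII:793520-793769 on the minus strand for TPS3, chrV:132720-132969 on the plus strand for GLC3 and chrXVI:860906-861055 on the plus strand for GPH1.
TPS1: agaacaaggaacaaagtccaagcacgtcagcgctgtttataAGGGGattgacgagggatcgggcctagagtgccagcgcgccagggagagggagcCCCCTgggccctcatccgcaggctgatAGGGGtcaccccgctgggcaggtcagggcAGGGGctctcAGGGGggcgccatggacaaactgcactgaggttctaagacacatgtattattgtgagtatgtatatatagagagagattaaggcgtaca
TSL1: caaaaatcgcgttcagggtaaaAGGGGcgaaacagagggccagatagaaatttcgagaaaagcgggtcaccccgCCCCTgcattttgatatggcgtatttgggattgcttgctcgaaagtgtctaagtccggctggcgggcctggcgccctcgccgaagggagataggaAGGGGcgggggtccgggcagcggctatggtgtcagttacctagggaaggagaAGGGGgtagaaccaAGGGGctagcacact
TPS3: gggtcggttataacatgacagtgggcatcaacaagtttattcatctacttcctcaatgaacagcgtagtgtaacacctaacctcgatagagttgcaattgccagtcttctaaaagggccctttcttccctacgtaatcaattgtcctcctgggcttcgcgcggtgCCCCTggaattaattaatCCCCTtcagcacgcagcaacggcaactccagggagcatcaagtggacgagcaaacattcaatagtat
GLC3: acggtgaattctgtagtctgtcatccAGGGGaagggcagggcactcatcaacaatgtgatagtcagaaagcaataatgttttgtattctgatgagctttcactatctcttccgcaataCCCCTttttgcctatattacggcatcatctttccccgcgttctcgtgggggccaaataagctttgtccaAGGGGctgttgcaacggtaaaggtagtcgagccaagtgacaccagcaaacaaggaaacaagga
GPH1: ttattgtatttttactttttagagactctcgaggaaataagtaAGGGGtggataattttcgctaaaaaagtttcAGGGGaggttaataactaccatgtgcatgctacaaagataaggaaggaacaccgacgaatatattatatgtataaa
Within these windows TPS1 had 5 matches, TSL1 had 5, GLC3 had 3, and TPS3 and GPH1 had 2 each. GPH1, the furthest apart between media, had as many as TPS3, the least. The genes called higher in pGAL-EUC1, TPS1, TSL1, TPS2 and NTH1, had 6, 5, 4 and 3 matches in the 500 bases. GLC3, not called in that comparison, also had 3. In the bases from 400 to 151, TPS2 and NTH1 had 1 and 2. Whether the number of matches goes with the fold changes was not tested. A match describes the sequence only, and no binding was measured here.

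**Figure D1:**
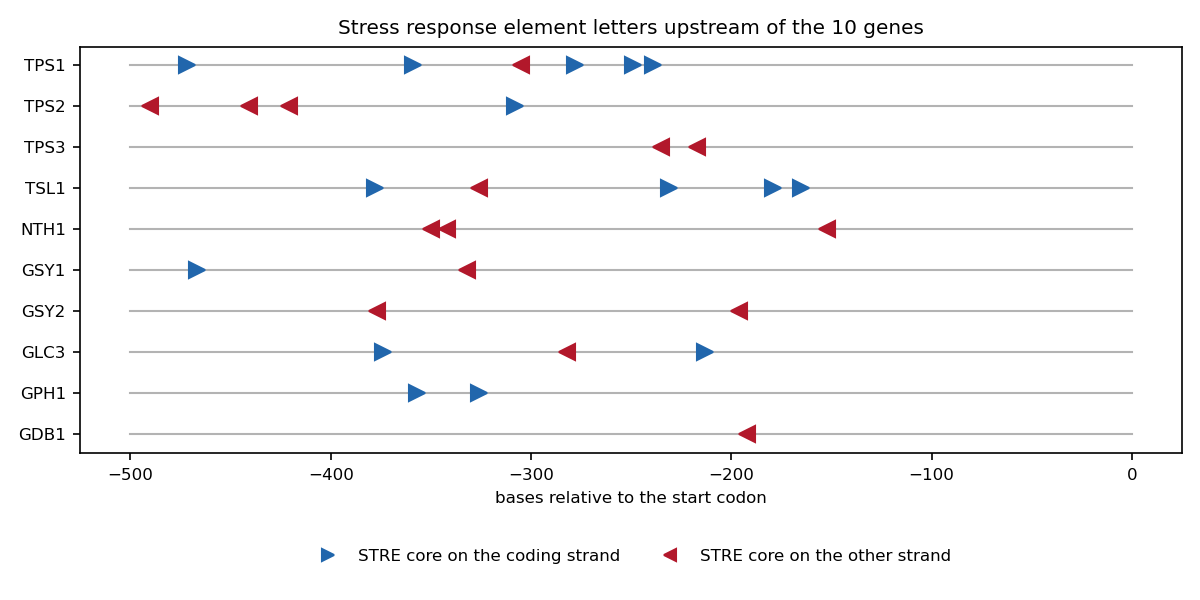
Positions of the STRE core letters on the coding strand (right-pointing) or on the other strand (left-pointing) in the 500 bases before the start codon of each gene, on an axis in bases. TPS1 has 6 marks and TSL1 has 5, against 2 for TPS3 and 1 for GDB1.

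None of the 10 genes has an intron, none overlaps another gene of the R64 annotation, and no 75-bp window of any of them occurs elsewhere in the genome, so reads are not split with a copy. TPS1 (YBR126C) lies at chrII:488905-490392, TPS2 (YDR074W) at chrIV:593893-596583, TPS3 (YMR261C) at chrXIII:790205-793369, TSL1 (YML100W) at chrXIII:70624-73920 and NTH1 (YDR001C) at chrIV:450220-452475. GSY1 (YFR015C) lies at chrVI:174265-176391, GSY2 (YLR258W) at chrXII:660716-662833, GLC3 (YEL011W) at chrV:133120-135234, GPH1 (YPR160W) at chrXVI:861306-864014 and GDB1 (YPR184W) at chrXVI:902044-906654. These are coding coordinates.

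Values are TPM, a measure of transcript abundance that is scaled for gene length and for the total of a sample. EUC1 itself followed the labels, at 1942 to 2035 TPM in pGAL-EUC1, 30.8 to 50.6 TPM in the control, 0 to 0.09 TPM in euc1∆ and 9.56 to 16.0 TPM in WT. The sample codes of replicate 3 in pGAL-EUC1 and in the control carry other letters than those of their replicates 1 and 2. EUC1, at 2035 TPM in pGAL-EUC1 replicate 3 and 31.6 TPM in control replicate 3, fits the titles, which were used. The genes of galactose use (GAL1, GAL7, GAL10 and GAL2) ranged from 2239 to 4798 TPM in pGAL-EUC1 and from 2180 to 4658 TPM in the control, against 1.53 to 7.25 TPM in euc1∆ and 1.90 to 7.36 TPM in WT. Summed MATa markers (1252 to 1583, 1273 to 1450, 934 to 1045 and 1113 to 1381 TPM in pGAL-EUC1, control, euc1∆ and WT) exceeded summed MATalpha markers (24.8 to 31.0, 24.7 to 28.2, 10.7 to 15.9 and 11.8 to 15.7 TPM) in every group. The median TPM over the whole table was 39.5 to 40.6 in pGAL-EUC1 and 37.2 to 37.8 in the control, against 25.5 to 27.1 in euc1∆ and 24.1 to 27.6 in WT, so a difference between media is best read beside the median shift of all genes. Samples are bulk cultures, in which fewer cells with a transcript and less of it per cell cannot be told apart.

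Together the 10 genes made up 0.0586 to 0.0646% of all TPM in pGAL-EUC1 and 0.0530 to 0.0601% in the control, against 0.0240 to 0.0249% in euc1∆ and 0.0190 to 0.0258% in WT. TPS1, the catalytic subunit that makes trehalose 6-phosphate, was the highest of the 10 in each group (means of 166, 144, 97.8 and 87.8 TPM in pGAL-EUC1, control, euc1∆ and WT). NTH1, the neutral trehalase that splits trehalose into glucose, was next in each group, and its samples did not overlap those of TPS1. GDB1, the glycogen debranching enzyme, had the lowest mean in each group, although its samples overlapped those of GPH1 in euc1∆ and WT. GPH1, the glycogen phosphorylase, was the third in both galactose-grown strains (70.0 TPM in pGAL-EUC1 and 72.2 TPM in the control) and the ninth in both glucose-grown strains (5.81 TPM in euc1∆ and 6.34 TPM in WT). The samples of GPH1 overlapped those of GSY2 in pGAL-EUC1 and those of GSY1 in WT. GSY2, GLC3 and TPS2 filled the next places in galactose, where TPS2 and GLC3 overlapped in both strains, and GSY2 and TPS2 in pGAL-EUC1. TPS3, a regulatory subunit of the trehalose synthase complex, went the other way in rank, with a level that differed little. It was the third in glucose but the eighth in pGAL-EUC1 and the seventh in the control. Its glucose samples overlapped those of TPS2, the gene next in order. The summed TPM of the 5 trehalose genes was 1.55 to 1.61 times that of the 5 glycogen genes in pGAL-EUC1 and 1.39 to 1.41 times in the control, against 3.51 to 3.73 times in euc1∆ and 3.23 to 3.66 times in WT. TPS1 decided this order in galactose: without it the ratio was 0.853 to 0.893 in pGAL-EUC1 and 0.757 to 0.798 in the control, against 1.70 to 1.83 in euc1∆ and 1.59 to 1.81 in WT.

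**Figure D2:**
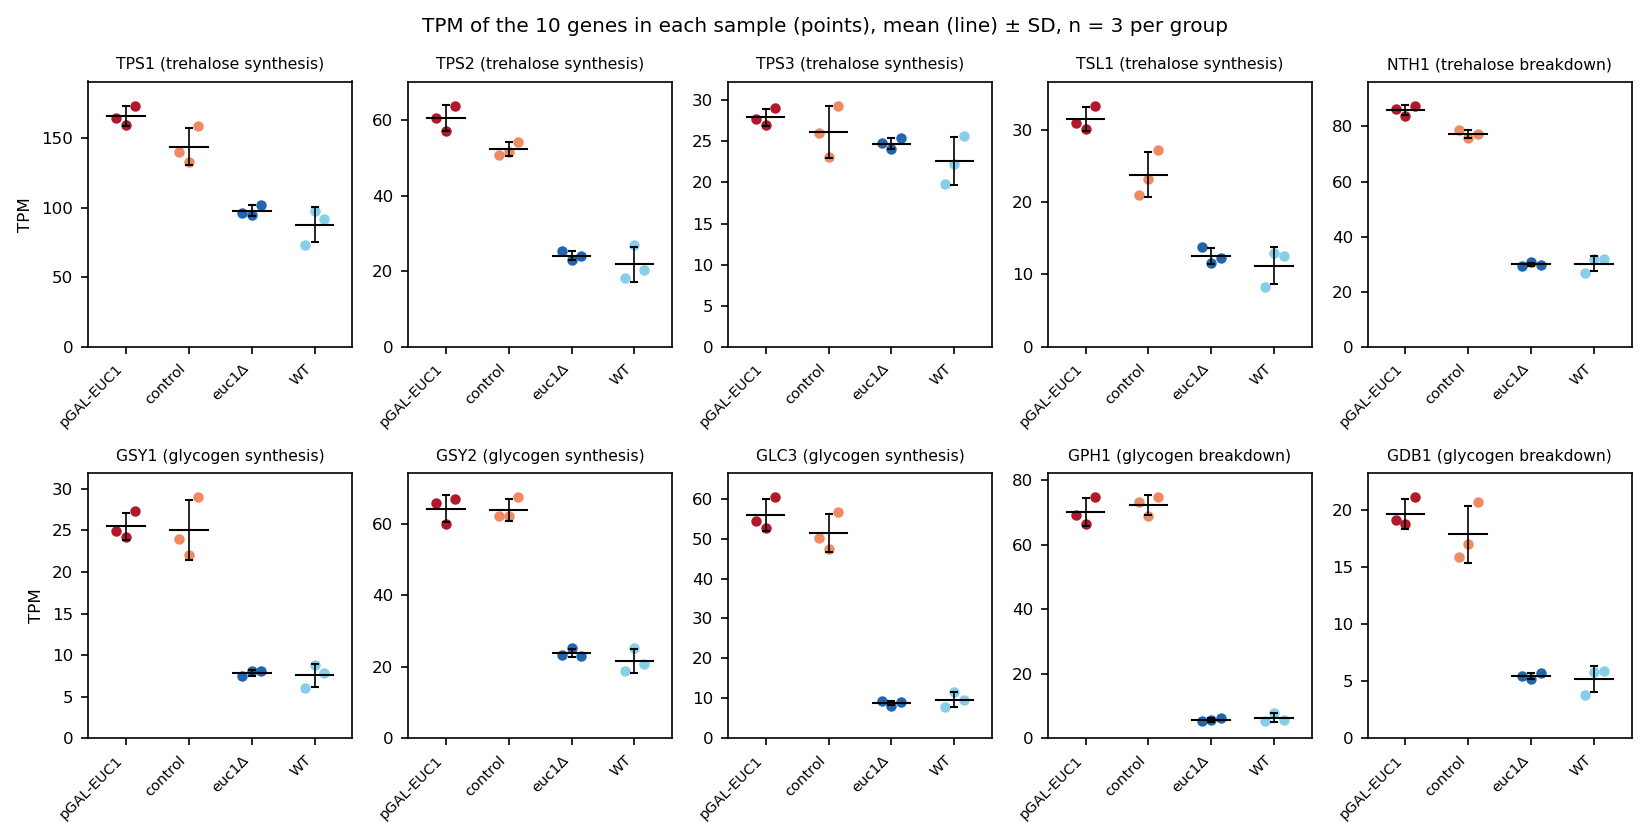
TPM (vertical axis, from 0, own scale per panel) of each gene in each sample of pGAL-EUC1, control, euc1∆ and WT, with the mean as a line and the SD as a bar (n = 3). GPH1 sits at 66.2 to 74.7 TPM in pGAL-EUC1 and 68.8 to 74.6 TPM in the control, against 5.23 to 6.44 TPM in euc1∆ and 5.32 to 7.94 TPM in WT, whereas the TPS3 points of all 4 groups lie between 19.8 and 29.3 TPM.

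With EUC1 overexpressed, 4 of the 10 genes were modestly higher. TPS1, TPS2, TSL1 and NTH1 rose in pGAL-EUC1 against the control, by 1.11 to 1.32 times in mean TPM, TPS3 and the 5 glycogen genes were not called, and none of the 10 fell. After rescaling by the median of ratios, TSL1 alone was called. Whether the trehalose and glycogen genes differ was not tested. All calls come from limma on log2(TPM + 1) with Benjamini-Hochberg adjustment over all genes, at an adjusted p under 0.1. Over all features, 20.4% of 6332 genes were called, 16.0% higher and 4.42% lower, so 4 higher of 10 stands against a background of 16.0%. The median log2 fold change was 0.13 over the 10 genes and 0.079 over all genes.

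TSL1, a regulatory subunit of the synthase complex, had 30.9, 30.1 and 33.3 TPM in pGAL-EUC1, against 21.0, 23.1 and 27.15 TPM in the control. Every pGAL-EUC1 sample was above every control sample. Its log2 fold change was 0.40 (SE 0.093, limma adjusted p = 0.0403), the largest of the 10 in this comparison. TPS1 had 165, 159 and 173 TPM in pGAL-EUC1, against 140.5, 133 and 158.5 TPM in the control. The groups came within 1 TPM of each other without overlapping, and the log2 fold change was 0.21 (SE 0.068, limma adjusted p = 0.0905). TPS2, the phosphatase that completes trehalose synthesis, had 60.5, 57.0 and 63.8 TPM in pGAL-EUC1, against 50.8, 51.6 and 54.3 TPM in the control. These groups were separate as well (log2 fold change 0.21, SE 0.055, limma adjusted p = 0.0538). NTH1 had 86.4, 83.9 and 87.6 TPM in pGAL-EUC1, against 78.9, 75.7 and 77.2 TPM in the control. The gene for breakdown thus rose along with those for synthesis (0.15, SE 0.040, limma adjusted p = 0.0546), with the tightest replicates of the 10. These 4 were the members with no overlap between groups, where 29.7% of all genes were higher without overlap. TPS3, the counterpart of TSL1, had 27.7, 27.0 and 29.0 TPM in pGAL-EUC1, against 26.0, 23.1 and 29.3 TPM in the control. Control replicate 3 was above every pGAL-EUC1 sample, and the difference was 0.098 (95% interval -0.10 to 0.30).

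The 4 calls are close to the threshold and depend on the scaling. After rescaling by the median of ratios, which brings the median of all genes to 0.0071, TSL1 remained called (0.32, adjusted p = 0.0908) while TPS1 (0.13, adjusted p = 0.323), TPS2 (0.13, adjusted p = 0.190) and NTH1 (0.078, adjusted p = 0.261) did not. The split over all genes was then 288 higher and 526 lower (4.55% and 8.31%), against 1014 higher and 280 lower as deposited. No member was called without control replicate 2, pGAL-EUC1 replicate 1 or pGAL-EUC1 replicate 3; 2 were called without control replicate 1, 3 without pGAL-EUC1 replicate 2 and 4 without control replicate 3. With a library left out the adjusted p ranged from 0.0243 to 0.130 for TSL1, from 0.0430 to 0.222 for TPS1, from 0.0525 to 0.169 for TPS2 and from 0.0751 to 0.176 for NTH1, while each fold change kept its sign. The count over all genes, 1294, was 210 without pGAL-EUC1 replicate 1, 570 without pGAL-EUC1 replicate 3 and 576 without control replicate 2.

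None of the 5 glycogen genes was called in this comparison. GSY2, the main glycogen synthase in cells entering stationary phase, had 65.7, 59.9 and 67.0 TPM in pGAL-EUC1, against 62.2, 62.15 and 67.5 TPM in the control. The groups overlapped throughout, and the difference of 0.0047 had a 95% interval of -0.13 to 0.14. GSY1, the other glycogen synthase, had 24.9, 24.3 and 27.3 TPM in pGAL-EUC1, against 24.0, 22.0 and 29.0 TPM in the control. Its difference was 0.034 (95% interval -0.20 to 0.27), with the control samples enclosing all pGAL-EUC1 samples. GLC3, the branching enzyme, had 54.3, 52.8 and 60.4 TPM in pGAL-EUC1, against 50.1, 47.5 and 56.6 TPM in the control. Control replicate 3 lay among the pGAL-EUC1 samples (0.12, 95% interval -0.062 to 0.30). GPH1 had 69.2, 66.2 and 74.7 TPM in pGAL-EUC1, against 73.3, 68.8 and 74.6 TPM in the control. It was the only member with a value below 0 (-0.045, 95% interval -0.18 to 0.089), with overlapping samples. GDB1 had 19.1, 18.75 and 21.1 TPM in pGAL-EUC1, against 15.9, 17.1 and 20.7 TPM in the control. Control replicate 3 again lay among the pGAL-EUC1 samples (0.14, 95% interval -0.098 to 0.37). For GSY2 and GPH1 the upper bounds of the log2 fold change were 0.14 and 0.089. The values measured for TPS1, TPS2, TSL1 and NTH1 were above these but have their own error (0.15, SE 0.040, for NTH1). No test of the difference between genes was made. Within pGAL-EUC1, replicate 3 was the highest and replicate 2 the lowest sample for 10 of 10 genes, against 38.3% and 47.4% of the genes that averaged 10 TPM or more. In the control, replicate 3 was the highest for 9 of 10, against 30.8%, and replicate 2 the lowest for 7 of 10, against 31.1%. Both of these replicate 3 libraries have sample codes that differ in letter from the rest of their group. The part of these libraries in the spread was not tested.

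In glucose, loss of EUC1 left all 10 genes within the spread of the replicates. No member was called in euc1∆ against WT, where 0.0322% of 6217 genes (2 genes) were called by limma, and 0 of 10 had an unadjusted p under 0.05, against 7.54% of all genes. The samples of euc1∆ and WT overlapped for each of the 10, where 5.71% of all genes were higher and 7.37% lower without overlap. The log2 fold changes ran from -0.099 for GLC3 to 0.17 for TSL1, with a median of 0.11 beside 0.0051 over all genes, and the adjusted p from 0.804 to 0.997.

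TPS1 had 96.4, 94.8 and 102 TPM in euc1∆, against 73.5, 97.7 and 92.1 TPM in WT. Its interval, -0.092 to 0.42 around 0.16, leaves room for a change as large as that seen with pGAL-EUC1. TPS2 had 25.3, 23.0 and 23.9 TPM in euc1∆, against 18.3, 27.0 and 20.3 TPM in WT. WT samples lay on both sides of the euc1∆ samples (0.15, 95% interval -0.18 to 0.48). TPS3 had 24.7, 24.0 and 25.4 TPM in euc1∆, against 19.8, 22.3 and 25.7 TPM in WT. TSL1 had 13.8, 11.6 and 12.3 TPM in euc1∆, against 8.22, 12.97 and 12.5 TPM in WT. For both subunits a WT sample fell below every euc1∆ sample while another exceeded 2 or more of them, at 0.13 (95% interval -0.13 to 0.39) for TPS3 and 0.17 (95% interval -0.24 to 0.58) for TSL1. NTH1 had 29.5, 30.6 and 29.8 TPM in euc1∆, against 26.9, 31.9 and 31.8 TPM in WT. NTH1 had the narrowest interval of the 10, -0.23 to 0.22 around -0.0073.

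Among the glycogen genes, GSY1 had 7.47, 8.10 and 8.05 TPM in euc1∆, against 6.06, 8.79 and 7.85 TPM in WT. GSY2 had 23.4, 25.2 and 23.1 TPM in euc1∆, against 18.8, 25.3 and 20.8 TPM in WT. For each synthase the WT samples enclosed those of euc1∆, with differences of 0.063 (95% interval -0.31 to 0.43) for GSY1 and 0.15 (95% interval -0.14 to 0.43) for GSY2. GLC3 had 9.30, 8.15 and 9.08 TPM in euc1∆, against 7.80, 11.5 and 9.58 TPM in WT. GPH1 had 5.23, 5.75 and 6.44 TPM in euc1∆, against 5.32, 7.94 and 5.75 TPM in WT. Both had WT replicate 2 as their highest sample, and both had values below 0, -0.099 (95% interval -0.47 to 0.27) for GLC3 and -0.095 (95% interval -0.52 to 0.33) for GPH1. GDB1 had 5.46, 5.24 and 5.72 TPM in euc1∆, against 3.84, 5.81 and 5.89 TPM in WT, a difference of 0.085 (95% interval -0.35 to 0.52). WT replicate 1 was the lowest WT sample for 10 of 10 genes, against 63.6% of the genes that averaged 10 TPM or more. Without it, TSL1 (-0.019), GSY1 (-0.070) and GDB1 (-0.082) turned to values below 0, and TPS1 (0.043), TPS2 (0.039), TPS3 (0.045) and GSY2 (0.057) came closer to 0. In the same fit NTH1 (-0.086), GLC3 (-0.23) and GPH1 (-0.19) moved further below 0. Without WT replicate 2, NTH1 (0.033), GLC3 (0.027) and GPH1 (0.056) turned above 0. NTH1 was also above 0 without WT replicate 3 (0.031) or euc1∆ replicate 1 (0.0039). None was called in any of these fits.

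Of the 3 comparisons, the one between media held the largest differences. In the control in galactose, 9 of the 10 genes were higher than in WT in glucose, and GPH1 was 11.4 times higher in mean TPM. Strain background, carbon source, experiment, the EUC1 locus and the extra MED11 copy of WT all differ between these groups and cannot be told apart. The control also went from raffinose to galactose for 3 h, whereas WT grew in glucose to mid-log phase. The words between media thus name the groups and not a cause. Over all features, 71.1% of 6324 genes were called, 57.8% higher and 13.3% lower, so a count of 9 higher is read against 57.8%. The median log2 fold change was 1.43 over the 10 genes and 0.36 over all genes. After rescaling by the median of ratios, which brings the median of all genes to 0.00029, the count of members higher was again 9, beside 34.9% of genes higher and 34.0% lower.

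The glycogen genes were furthest apart. GPH1 averaged 72.2 ± 3.05 TPM in the control and 6.34 ± 1.41 TPM in WT (SD, n = 3 each), which is 3.34 on the log2 scale (SE 0.14, limma adjusted p = 3.0e-07). GLC3 averaged 51.4 ± 4.69 TPM in the control and 9.64 ± 1.87 TPM in WT, a log2 fold change of 2.31 (SE 0.14). The genes that rose most thus held one of glycogen breakdown, GPH1, and one of glycogen synthesis, GLC3. GDB1 (1.62, SE 0.18), GSY1 (1.61, SE 0.16) and GSY2 (1.53, SE 0.11) lay close together. GSY2 averaged 63.95 ± 3.05 TPM in the control and 21.6 ± 3.34 TPM in WT, and GSY1 averaged 25.0 ± 3.59 TPM in the control and 7.57 ± 1.39 TPM in WT. GDB1 averaged 17.9 ± 2.51 TPM in the control and 5.18 ± 1.16 TPM in WT. For each of the 5, every control sample was above every WT sample, and the limma adjusted p was at most 8.04e-05. After rescaling GPH1 was at 2.99, GLC3 at 1.96, GDB1 at 1.29, GSY1 at 1.26 and GSY2 at 1.17.

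The trehalose genes ran from 0.20 for TPS3 to 1.33 for NTH1 on the log2 scale. NTH1 averaged 77.3 ± 1.58 TPM in the control and 30.2 ± 2.85 TPM in WT (log2 fold change 1.33, SE 0.087). TPS2 averaged 52.2 ± 1.82 TPM in the control and 21.8 ± 4.55 TPM in WT (1.24, SE 0.14). TSL1 averaged 23.8 ± 3.12 TPM in the control and 11.2 ± 2.61 TPM in WT (1.03, SE 0.18). TPS1, the most abundant, rose least among the genes called, at 144 ± 13.02 TPM in the control and 87.8 ± 12.7 TPM in WT (0.72, SE 0.12, limma adjusted p = 0.000821). The scaling moved these values: after rescaling TPS1 was at 0.34 (adjusted p = 0.0131), TSL1 at 0.68 (adjusted p = 0.00498), TPS2 at 0.88 and NTH1 at 0.96. With these 4, all 9 genes called were free of overlap between groups, where 58.4% of all genes were higher without overlap. TPS3 averaged 26.1 ± 3.14 TPM in the control and 22.6 ± 2.92 TPM in WT, with overlapping samples and no call (0.20, SE 0.13, limma adjusted p = 0.189). Its direction turned with rescaling (-0.16, adjusted p = 0.215), and it was called higher without WT replicate 3 (0.29, adjusted p = 0.0740) and in a fit of all 12 samples (0.20, adjusted p = 0.0934). In the other pair of strains, pGAL-EUC1 in galactose against euc1∆ in glucose, 10 of 10 were higher (68.6% of all genes), with GPH1 at 3.39 and TPS3 at 0.17. The control is shared between the comparison with pGAL-EUC1 and the one with WT, and WT is shared between the comparison with the control and the one with euc1∆, so their values are not independent.

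**Figure D3:**
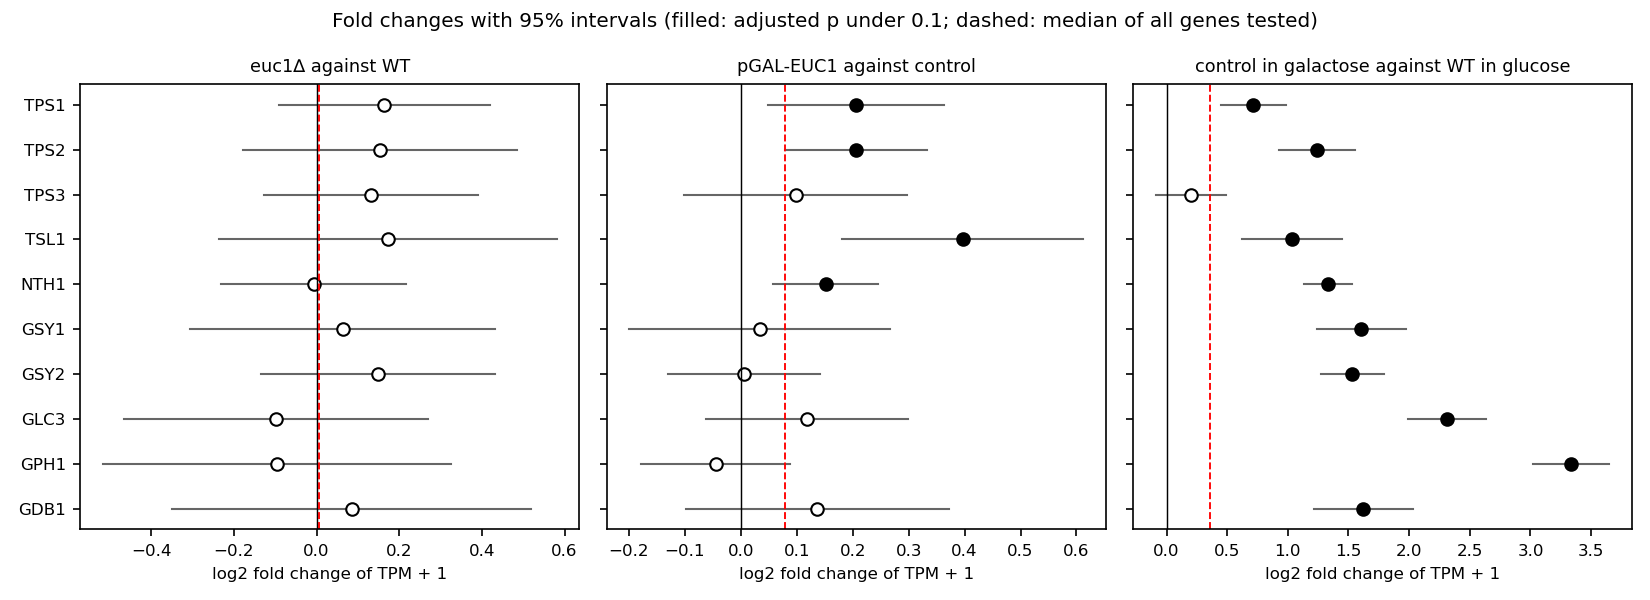
Log2 fold change of TPM + 1 of each gene (horizontal axis, scale differs by panel) with its 95% interval in the 3 comparisons; filled points have an adjusted p under 0.1 and the dashed line is the median of all genes tested. All 10 points are open for euc1∆ against WT, 4 are filled for pGAL-EUC1 against control, and 9 are filled for control in galactose against WT in glucose, where GPH1 stands at 3.34.

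The balance within pairs of related genes is given as the ratio of TPM in each sample, as a description with no test. TSL1 to TPS3 averaged 1.13 ± 0.019 in pGAL-EUC1, 0.912 ± 0.097 in the control, 0.509 ± 0.042 in euc1∆ and 0.494 ± 0.084 in WT (SD, n = 3 each). The ratio was 1.11, 1.12 and 1.15 in the pGAL-EUC1 samples, against 0.809, 1.00 and 0.925 in the control samples, with no overlap. In euc1∆ it was 0.557, 0.484 and 0.485 and in WT 0.414, 0.582 and 0.487, so the glucose samples lay below all galactose samples. GSY2 exceeded GSY1 in every sample, by 2.52 ± 0.10 times in pGAL-EUC1, 2.58 ± 0.25 in the control, 3.04 ± 0.15 in euc1∆ and 2.87 ± 0.22 in WT. NTH1 was 1.54 ± 0.025 times its paralog NTH2 in pGAL-EUC1 and 1.55 ± 0.063 times in the control, against 2.08 ± 0.048 times in euc1∆ and 2.23 ± 0.067 times in WT. The phosphoglucomutases, which interconvert glucose 1-phosphate and glucose 6-phosphate, exchanged places: PGM2 to PGM1 was 2.39 ± 0.21 in pGAL-EUC1 and 2.20 ± 0.12 in the control, against 0.280 ± 0.018 in euc1∆ and 0.299 ± 0.027 in WT.

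**Figure D4:**
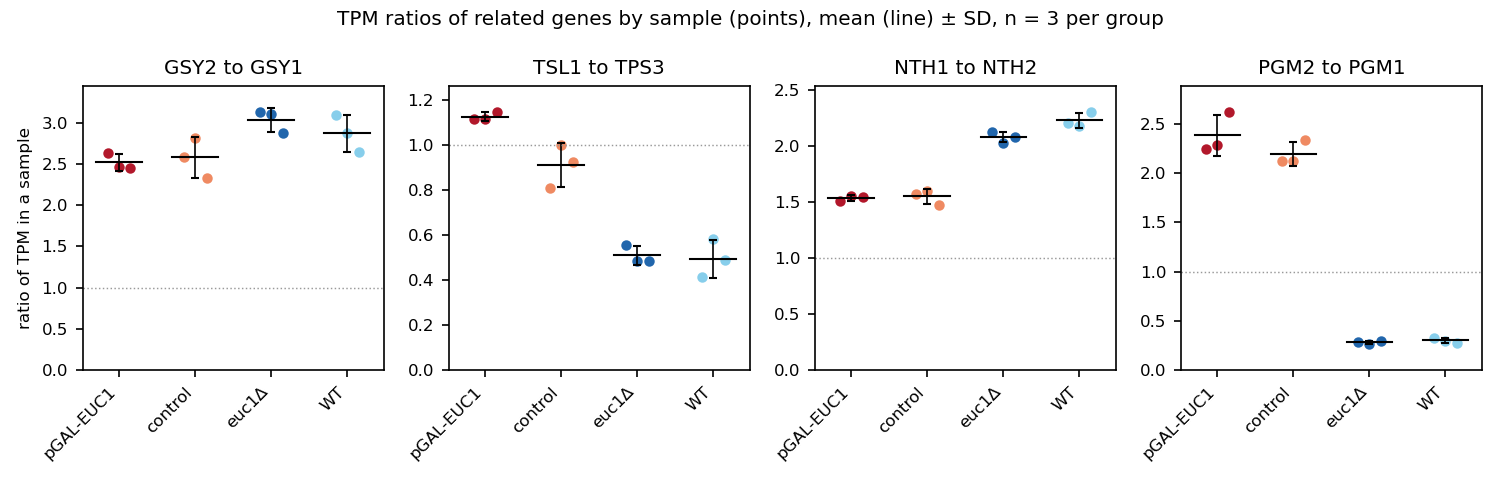
Ratio of TPM within each sample for 4 pairs of genes (vertical axis, from 0), with the mean as a line, the SD as a bar (n = 3) and equality as a dotted line. PGM2 to PGM1 lies above 2 in all galactose samples and below 0.33 in all glucose samples, and TSL1 to TPS3 is at 1.11 to 1.15 in pGAL-EUC1, against 0.809 to 1.00 in the control.

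The wider pathway was read from 21 further genes for trehalose breakdown, glycogen priming, sugar phosphate supply and control of glycogen synthase. In pGAL-EUC1 against the control, 3 of the 21 rose and 1 fell, beside 16.0% and 4.42% of all genes. ATH1, the acid trehalase, had 18.0, 17.8 and 17.9 TPM in pGAL-EUC1, against 13.7, 13.04 and 15.4 TPM in the control, with no overlap (0.33, limma adjusted p = 0.0391). UGP1, which makes UDP-glucose for both products, rose by 0.21 (limma adjusted p = 0.0589). NTH2, chosen for naming after its value was seen, rose by 0.16 (limma adjusted p = 0.0836). The gene that fell was GAC1, a subunit that directs the phosphatase Glc7 to glycogen synthase. It had 21.1, 19.1 and 21.4 TPM in pGAL-EUC1, against 27.6, 25.1 and 30.5 TPM in the control, again with no overlap (-0.41, limma adjusted p = 0.0267). After rescaling, ATH1 (0.26, adjusted p = 0.0889) and GAC1 (-0.48, adjusted p = 0.0175) were called and the others were not. With each of the 6 libraries left out in turn, GAC1 was called in 5 fits, ATH1 in 3, and UGP1 and NTH2 in 2 each. In euc1∆ against WT none of the 21 was called, with log2 fold changes from -0.44 to 0.24.

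In the control in galactose against WT in glucose, 19 of the 21 were higher and 1 was lower, beside 57.8% and 13.3% of all genes. After rescaling the counts were 16 and 2, beside 34.9% and 34.0%. The 21 genes had a log2 fold change with a median of 1.16 beside 0.36 over all genes. IGD1, an inhibitor of the debranching enzyme, had 56.3, 67.6 and 68.25 TPM in the control, against 7.64, 6.26 and 5.38 TPM in WT. PGM2 had 102, 105 and 117 TPM in the control, against 18.7, 20.2 and 18.4 TPM in WT. No sample overlapped for either, at 3.14 for IGD1 and 2.44 for PGM2. SGA1, a glucoamylase known from sporulating cells (2.14), GIP2, another Glc7 partner (1.93), and NTH2 (1.81) followed. PGM1 was lower (-0.38, limma adjusted p = 0.00553) and PCL8, a cyclin of the kinase that inhibits glycogen synthase, was not called (0.22, limma adjusted p = 0.162); these last were named after their values were seen.

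Among 11 genes of the protein kinase A pathway and of factors that act through the STRE, 3 rose in pGAL-EUC1 against the control and none fell, beside 16.0% and 4.42% of all genes. MSN4 had 46.4, 47.15 and 51.75 TPM in pGAL-EUC1, against 37.5, 36.8 and 40.0 TPM in the control (0.34, limma adjusted p = 0.0190), and was called under rescaling as well (0.27, adjusted p = 0.0453). TPK3, a catalytic subunit of the kinase (0.20), and BCY1, its regulatory subunit (0.15), both had a limma adjusted p of 0.0734 and were not called after rescaling. With a library left out MSN4 was called in 6 of 6 fits, TPK3 in 2 and BCY1 in 1. In the control in galactose against WT in glucose, 8 of the 11 were higher (57.8% of all genes), led by the phosphodiesterase gene PDE1 (2.20), MSN4 (1.94), GIS1 (1.40), TPK2 (1.17) and YAK1 (1.09). TPK3 (-0.31) and PDE2 (-0.16) were lower (13.3% of all genes) and MSN2 was not called (0.22), 3 genes named after their values were seen. None of the 11 was called in euc1∆ against WT.

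Of 8 general stress genes, which all hold AGGGG in the same 500 bases, 2 rose and 1 fell in pGAL-EUC1 against the control, beside 16.0% and 4.42% of all genes. HSP12, a membrane-associated small stress protein, had 1047, 966 and 903 TPM in pGAL-EUC1, against 655, 688 and 685 TPM in the control (0.52, limma adjusted p = 0.00361). TFS1, an inhibitor of carboxypeptidase Y, rose by 0.39 (limma adjusted p = 0.00850), and HSP26, a small heat shock chaperone, fell by 0.23 (limma adjusted p = 0.0808). With a library left out HSP12 and TFS1 were called in 6 of 6 fits and HSP26 in 2. In euc1∆ against WT none of the 8 was called. HSP12 had 24.6, 23.7 and 46.8 TPM in euc1∆, against 65.0, 79.2 and 55.0 TPM in WT, which did not overlap but missed the threshold (-1.10, limma adjusted p = 0.294). The paper, which tested counts, reports HSP12 as lower in euc1∆ and higher with EUC1 overexpressed. In the control in galactose against WT in glucose 8 of 8 were higher, beside 57.8% of all genes, with DDR2 (5.49), HSP26 (4.70), HXK1 (3.93), HSP12 (3.34) and SOL4 (2.43) in the lead. GPH1, at 3.34, thus lay within the range of the stress genes.

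**Figure D5:**
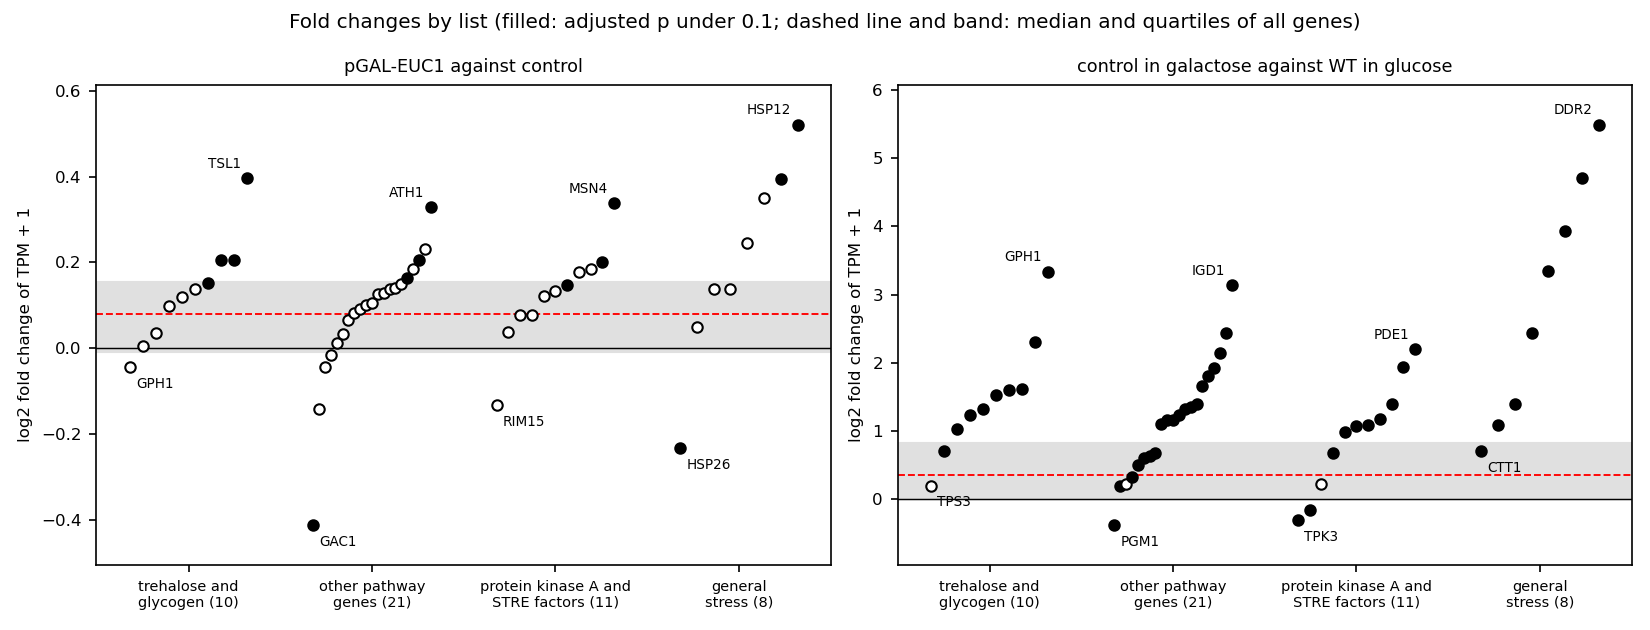
Log2 fold change of TPM + 1 of every gene in the 4 lists, in 2 comparisons, with the median (dashed) and quartiles (band) of all genes tested; filled points have an adjusted p under 0.1. In pGAL-EUC1 against control TSL1 stands at 0.40, GAC1 at -0.41 and HSP12 at 0.52, and in the control in galactose against WT in glucose 9 of the 10 members lie above the median of all genes, 0.36.

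The genes with the profile most like each of the 10 were sought among 5499 genes, as the smallest root mean square distance in centred log2(TPM + 1) over the 12 samples, which fall into 2 media and so mostly share the step between them. GSY1 and GDB1 were nearest to each other (0.083), the single pair of members that was. NTH1 (0.049) and GSY2 (0.070) were both nearest to YME2, which encodes a mitochondrial inner membrane protein. TPS1 was nearest to ATG42 (0.066), a vacuolar carboxypeptidase gene, TPS3 to PTI1 (0.056), a subunit of the mRNA cleavage machinery, and GLC3 to APE1 (0.081), a vacuolar aminopeptidase gene. TPS2 was nearest to NCA2 (0.11), TSL1 to CAR2 (0.12), an ornithine transaminase gene, and GPH1 to AGX1 (0.11), an aminotransferase gene that makes glycine. Within the nearest 50 genes, GSY1 and GSY2 each had 3 other members, TPS2 and GDB1 had 2, TSL1 and NTH1 had 1, and TPS1, TPS3, GLC3 and GPH1 had 0.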

How the data were processed

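PolyA RNA of 12 yeast cultures was sequenced as 75-bp single-end reads. The authors aligned the reads with STAR 2.6.0a to the R64 transcriptome and calculated TPM with RSEM 1.3.0; the deposited table holds these TPM values with no counts, so the depth behind a value is unknown. Whether strand was used in assignment is not given in the sources used here. The table's header is shifted by 1 cell against its values, which the labels and the level of EUC1 resolve. Of 6825 identifiers, 5903 match R64.

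Each comparison was fitted on its 6 samples with limma 3.58.1 (R 4.3.3; lmFit, eBayes with a trend) on log2(TPM + 1), after dropping genes that averaged under 1 TPM. Fold changes are on this scale, which understates low genes. Tests are two-sided, with Benjamini-Hochberg adjustment over all genes and a threshold of 0.1, as in the study's tests. The TPM unit took the place of the counts on which the authors ran DESeq2. With that test, at another threshold, the paper reports many more genes changed in euc1∆ than were called here. P-values measure the spread between cultures of 1 strain per group. Tables were made with pandas 2.3.3 and numpy 2.4.6 under Python 3.11.15, and figures with matplotlib 3.10.9.

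All 10 members are named. From the other lists, genes called and among the 5 largest changes of their list are named, and exceptions are marked as such. The members and the lists were chosen with earlier results of these data known. Alternatives were a pseudocount of 0.1 or 5 TPM, a filter at 10 TPM or none, median-of-ratios rescaling, a prior without trend, all 12 samples fitted together, nuclear open reading frames alone, a replicate block, and each replicate left out.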

Additional observations from a re-analysis of the deposited data

How the results depend on the processing

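The TPM carry no depth, so the precision of single values is unknown, and 3 replicates of 1 strain per group limit each comparison. In euc1∆ against WT, where 2 genes were called, 1 was called with a pseudocount of 0.1 or 5 TPM, 0 with a mean of at least 10 TPM, 4 after median-of-ratios rescaling, 101 with all 12 samples in a single fit, and 1 to 3 with a replicate left out; members called stayed at 0 in each. In pGAL-EUC1 against control (1294 genes and 4 members called), 814 genes and 1 member were called after rescaling, 163 and 0 with all 12 samples, and 210 to 1081 and 0 to 4 with a replicate left out. The cause was not tested. Fold changes of single members turned sign in 3 cases with no call, namely GSY1 (-0.038) and GSY2 (-0.069) in pGAL-EUC1 against control and TPS3 (-0.16) in control against WT, all after rescaling. With a replicate left out, sign turned in euc1∆ against WT for TSL1 (-0.019 to 0.28), NTH1 (-0.086 to 0.033), GSY1 (-0.070 to 0.17), GLC3 (-0.23 to 0.027), GPH1 (-0.19 to 0.056) and GDB1 (-0.082 to 0.17), and in pGAL-EUC1 against control for GSY1 (-0.049 to 0.14) and GSY2 (-0.026 to 0.053). In control against WT, 9 or 10 members were called in every alternative. Members with a mean under 10 TPM in euc1∆ against WT gave no value under that filter.

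Replicate numbers are shared between groups. Over all genes tested, deviations of same-numbered samples correlated at -0.11, 0.078 and 0.054 in euc1∆ against WT. The values were -0.0059, 0.19 and -0.11 in pGAL-EUC1 against control, and -0.050, -0.085 and -0.026 in control against WT. These show no steady pairing over all genes. Among the members, replicate 3 was the highest for 10 of 10 in pGAL-EUC1 and 9 of 10 in the control. Replicate 2 was the lowest for 10 of 10 and 7 of 10. Whether same-numbered galactose samples share an effect was not tested. With the replicate number as a block, 1 gene and 0 members were called in euc1∆ against WT, 1221 genes and 4 members in pGAL-EUC1 against control, and 4344 genes and 9 members in control against WT. In that fit of pGAL-EUC1 against control the limma adjusted p was 0.0326 for TSL1, 0.0494 for TPS1, 0.0549 for TPS2 and 0.0730 for NTH1.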
